A study of Mus musculus with 6 samples.

Results

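Calmodulin, the kinases it switches on and the phosphatase calcineurin were followed through 9 genes of the 16729 in the count table: the calmodulin genes Calm2 and Calm3, the kinase genes Camk2a, Camk2b, Camk2d, Camk2g and Camk4, and the calcineurin genes Ppp3ca and Ppp3cb. They were chosen by gene symbol with their difference between Esm1 KO and WT hosts already known, so the KO against WT values of these 9 genes are a description and carry no test. The data are bulk RNA-seq of 6 mouse brain tumors. Each tumor grew from 500000 cells of the line mG7080, a gliomasphere culture from a mouse glioblastoma model whose mutations include p53 and Nf1. The cells were injected into the brain of a C57BL/6 host aged 6 to 8 weeks. Hosts were wild type (WT 1 to WT 3) or lacked Esm1, the gene of the secreted proteoglycan endocan (KO 1 to KO 3). The deletion was carried by the host and not by the injected cells, which are 1 line and were the same in both groups. Total RNA came from resected tumor tissue, so every library mixes RNA of tumor cells and of host brain, and a lower value may mean fewer cells of a type or less RNA per cell, which bulk samples cannot tell apart.

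Calmodulin is a small protein that changes shape when it binds calcium and then binds other proteins. Calcium-bound calmodulin activates CaMKII, a kinase of many subunits that can phosphorylate itself and stay active after calcium has fallen. It also activates CaMKIV, which works largely in the nucleus, and calcineurin, a phosphatase that acts on NFAT transcription factors. In the brain these proteins are abundant in neurons, where CaMKII is a main protein of excitatory synapses. CaMKII alpha is typical of forebrain excitatory neurons, whereas CaMKII delta and gamma are found in many cell types.

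Sequence counts here because the calmodulin genes Calm2 and Calm3 encode the same protein. In the GENCODE vM21 annotation (GRCm38) each encodes 149 residues, and the translated proteins were identical. The genes lie apart, Calm2 at chr17:87433412-87446935 and Calm3 at chr7:16915379-16924114, both on the minus strand. Their coding sequences differed at 78 of 450 bases, and 74 of these were the third base of a codon. The coding part is 450 of 1205 transcript bases in Calm2 and 450 of 2290 in Calm3, so reads also come from untranslated parts. The first 120 coding bases are shown because they hold 18 of the differing bases. These are in capitals and help to assign a read from the coding part to one of these genes.
Calm2: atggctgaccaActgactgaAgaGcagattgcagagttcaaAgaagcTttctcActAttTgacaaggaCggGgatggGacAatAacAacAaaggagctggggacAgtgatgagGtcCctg
Calm3: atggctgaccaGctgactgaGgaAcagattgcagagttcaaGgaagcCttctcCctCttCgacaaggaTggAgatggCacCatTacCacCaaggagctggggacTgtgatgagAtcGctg

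Reads of 50 bases could therefore mostly be assigned, but not fully. Of all 50-base windows of the Calm2 transcript, 12.7% also occurred in transcripts of other genes (Gm14480, Gm15720 and Gm7308), and within its coding part the share was 36.7%. For Calm3 it was 2.77% of the transcript, shared with Gm5881. No window of Camk2b, Camk2d, Camk2g, Ppp3ca or Ppp3cb was shared, and for Camk2a and Camk4 the shares were 0.447% and 0.862%. By this measure counts of Calm2 were the least certain of the 9, since the study counted only uniquely mapped reads. The paper's methods name paired-end reads of 50 bases, whereas the windows were single, so these shares may overstate the reads lost.

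The 4 CaMKII genes encode proteins that were 84.5% to 89.3% identical to each other, counted over the shorter protein of each pair. All carry the threonine that the kinase phosphorylates on itself, at residue 286 in Camk2a and at residue 287 in the other 3. The 45 coding bases around it are shown for Camk2b, Camk2d and Camk2g with the threonine codon in capitals, because the surrounding bases differ between the genes. The threonine codon itself was ACT in Camk2b and Camk2d and ACG in Camk2g. Some of the other differing bases also change a residue.
Camk2b: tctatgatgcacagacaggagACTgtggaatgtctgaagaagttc
Camk2d: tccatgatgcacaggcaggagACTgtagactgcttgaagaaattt
Camk2g: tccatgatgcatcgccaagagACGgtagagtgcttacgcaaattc

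RefSeq promoter entries (GRCm38.p6) matched 4 of the 9 genes, Camk2b, Camk2d, Calm3 and Ppp3cb. The 250 bases upstream of the start are shown for Camk2b and Camk2d, which had the largest and the smallest KO against WT difference of these 4, with GC boxes (GGGCGG on either strand) in capitals. The Camk2b stretch is chr11:6065749-6065998 on the minus strand and the Camk2d stretch chr3:126596701-126596950 on the plus strand. Both stretches lie inside the GENCODE spans of their genes, chr11:5969644-6066362 and chr3:126596302-126846326. They are thus upstream of the RefSeq start used here and not of the whole annotated gene.
Camk2b upstream: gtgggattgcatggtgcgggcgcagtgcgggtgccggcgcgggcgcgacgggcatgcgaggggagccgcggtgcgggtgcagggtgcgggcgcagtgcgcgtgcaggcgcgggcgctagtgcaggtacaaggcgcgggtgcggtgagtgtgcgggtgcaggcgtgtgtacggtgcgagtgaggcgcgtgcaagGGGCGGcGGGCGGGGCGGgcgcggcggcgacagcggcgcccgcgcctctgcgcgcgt
Camk2d upstream: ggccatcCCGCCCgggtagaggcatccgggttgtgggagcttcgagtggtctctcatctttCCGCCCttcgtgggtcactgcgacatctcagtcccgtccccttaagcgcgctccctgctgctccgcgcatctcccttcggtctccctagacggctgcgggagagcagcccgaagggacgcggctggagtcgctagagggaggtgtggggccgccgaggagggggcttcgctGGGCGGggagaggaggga

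Both upstream stretches held 3 GC boxes, Ppp3cb held 2 and Calm3 none, and 32.7% of 32851 promoters held at least 1. The core of the CREB element, TGACG on either strand, was present in Calm3 alone of the 4, against 17.8% of all promoters. A match in these letters is not a binding site, and a link between these motifs and the host contrast was not tested.

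Libraries held 17632070 to 22241832 counted reads, and 1 read was worth 0.0445 to 0.057 CPM (counts scaled to library size with TMM factors), so counting error was small for every member. Esm1 itself was at 1.19, 1.09 and 4.05 CPM in WT 1, WT 2 and WT 3 and at 0.057, 1.07 and 0.208 CPM in KO 1, KO 2 and KO 3. The library labelled KO 2 was thus at the level of WT 2. The injected cells carry Esm1, so tumor cell RNA and a mislabelled host cannot be told apart, and the KO against WT differences are given with and without KO 2. The summed CPM of 14 neuron markers was 6090, 2444 and 3616 in WT 1 to WT 3 and 12065, 4828 and 14446 in KO 1 to KO 3, with no marker at 0 in any library and all 14 higher in KO. The 5 proliferation markers summed to 898, 1596 and 1553 CPM in WT and 79.0, 997 and 8.17 CPM in KO, and 5 glioma markers to 874, 1181 and 1129 CPM in WT and 295, 1085 and 213 CPM in KO. KO 1 and KO 3 were outside the WT range in all 3 sums, with more neuron and less tumor RNA, whereas KO 2 was inside it in each. The part of these sums in the member values was not tested.

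**Figure D1:**
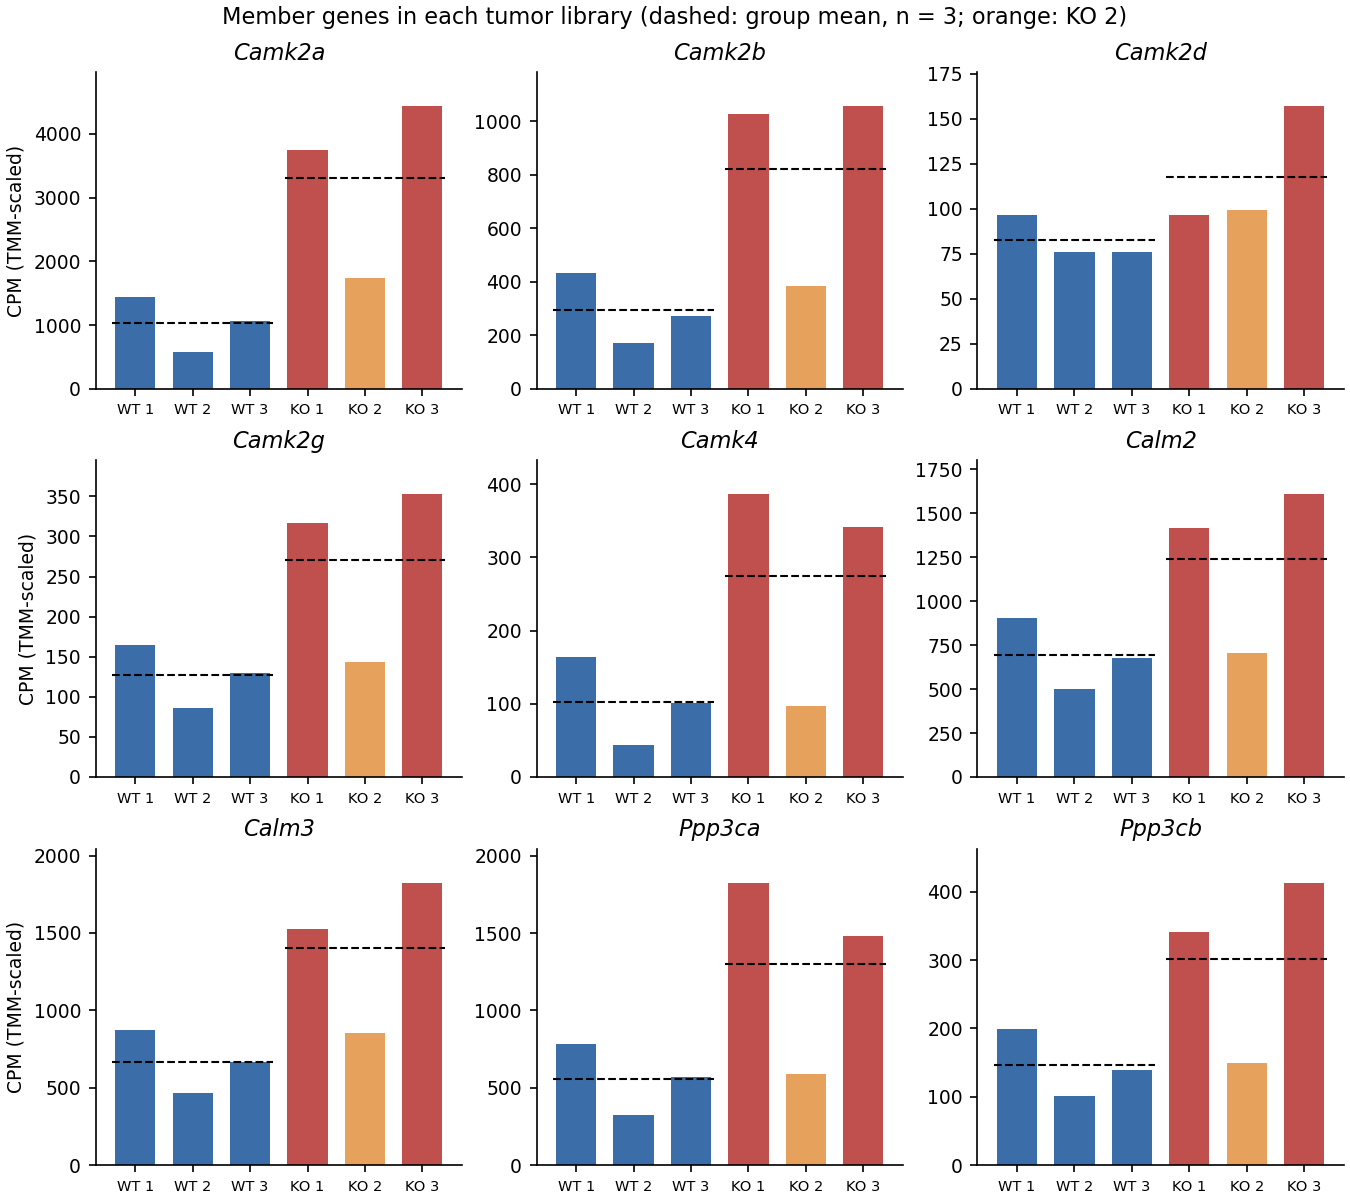
CPM (TMM-scaled, vertical axis from 0) of the 9 genes in each of the 6 tumor libraries, WT in blue, KO in red and the library labelled KO 2 in orange, with the group mean of 3 libraries as a dashed line. KO 1 and KO 3 stand above all WT libraries for 8 of 9 genes, and WT 2 is the lowest library for every gene.

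All 9 genes had a higher mean in KO than in WT tumors, by 1.42-fold (Camk2d) to 3.23-fold (Camk2a). Their median log2 difference was 1.08 over all 6 libraries and 1.40 without KO 2, whereas the median over all genes tested was -0.02 in both. The plot of CPM by library shows that KO 1 and KO 3 lay above the 3 WT libraries for 8 of 9 genes. Among all genes tested, 37.5% did so. Only Camk2a had all 3 KO libraries above all 3 WT libraries, as did 13.2% of all genes. KO 2 lay within the WT range for 7 of 9 genes and above it for Camk2a and Camk2d.

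Calm2 was counted at 907, 501 and 674 CPM in WT 1, WT 2 and WT 3 and at 1415, 704 and 1608 CPM in KO 1, KO 2 and KO 3. KO 2 fell between WT 3 and WT 1, so the groups overlapped, while KO 1 and KO 3 were higher than all WT libraries. This gave a log2 fold change of 0.83 ± 0.40 (SE, n = 3 and 3), and 1.13 ± 0.30 without KO 2. This was the second smallest difference of the 9 genes.

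Calm3 was at 873, 469 and 664 CPM in the WT libraries and at 1525, 857 and 1826 CPM in the KO libraries. KO 2 was just under WT 1, and otherwise the order was that of Calm2. Its log2 fold change was 1.06 ± 0.39, and 1.33 ± 0.32 without KO 2.

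Camk2a, the alpha subunit of CaMKII (chr18:60925618-60988152, plus strand), had the largest difference of the 9 genes. It was at 1434, 576 and 1065 CPM in WT 1, WT 2 and WT 3 and at 3747, 1743 and 4435 CPM in KO 1, KO 2 and KO 3. The lowest KO value, that of KO 2, was above the highest WT value, that of WT 1. The WT mean was 1025 ± 431 CPM (SD, n = 3), and the KO mean 3308 ± 1398.8 CPM (SD, n = 3). The log2 fold change was 1.68 ± 0.52, and 2.00 ± 0.43 without KO 2.

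Camk2b, the beta subunit, which also binds actin (chr11:5969644-6066362, minus strand), was at 433, 172 and 274 CPM in WT and at 1026, 384 and 1057 CPM in KO. KO 2 was below WT 1 and above the other WT libraries. On the log2 scale the difference was 1.48 ± 0.51, and 1.83 ± 0.39 without KO 2. Of the other members, its profile over the 6 libraries lay closest to that of Camk2a, at a root mean square distance of 0.166 in log2 CPM after each gene was centred on its own mean.

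Camk2g, the gamma subunit (chr14:20734875-20794088, minus strand), was at 165, 85.5 and 130 CPM in WT and 317, 143 and 353 CPM in KO. The library order was the same as for Camk2b. This gave a log2 fold change of 1.08 ± 0.40, and 1.40 ± 0.28 without KO 2.

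Camk2d, the delta subunit, known from heart and many other tissues (chr3:126596302-126846326, plus strand), varied least. It was at 96.6, 76.0 and 76.2 CPM in WT 1, WT 2 and WT 3 and at 96.6, 99.4 and 157 CPM in KO 1, KO 2 and KO 3. WT 1 and KO 1 were level and KO 3 stood alone above the rest, so the groups met at WT 1. On the log2 scale the difference was 0.49 ± 0.23, and 0.62 ± 0.24 without KO 2. Its largest distances were to Camk4 (0.883) and Camk2a (0.754), and the former was the largest among all pairs of the 9.

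Camk4, the gene of CaMKIV (chr18:32934931-33191228, plus strand), was at 163, 43.3 and 101 CPM in WT and 386, 96.6 and 341 CPM in KO. KO 2 was below both WT 1 and WT 3, and the highest library was 8.91 times the lowest, the widest range of the 9. The log2 fold change was 1.42 ± 0.66, and 1.83 ± 0.51 without KO 2. CaMKIV is also made by T cells. The 7 T cell markers summed to 36.1, 34.5 and 32.3 CPM in WT and to 28.0, 50.7 and 7.29 CPM in KO, and their part in the Camk4 values was not tested.

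Ppp3ca, the alpha catalytic subunit of calcineurin (chr3:136670124-136937727, plus strand), was at 786, 321 and 567 CPM in WT and 1827, 589 and 1484 CPM in KO. KO 2 was close to WT 3 and below WT 1. Its log2 fold change was 1.21 ± 0.52, and 1.57 ± 0.40 without KO 2. Ppp3cb, the beta catalytic subunit (chr14:20499364-20546573, minus strand), was at 199, 101 and 139 CPM in WT and 342, 150 and 414 CPM in KO. Again KO 2 lay inside the WT range. The log2 fold change was 1.03 ± 0.43, and 1.37 ± 0.30 without KO 2. Its profile and that of Camk2g were the closest pair among the 9, at a distance of 0.0792.

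**Figure D2:**
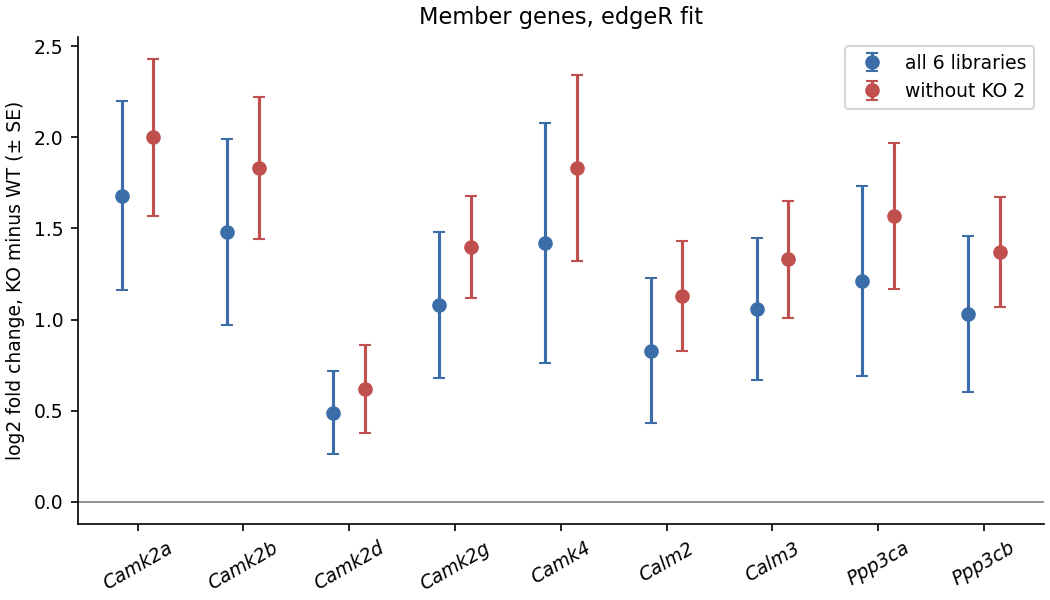
Log2 fold change, KO minus WT, with its standard error for the 9 genes from the edgeR fit of all 6 libraries (blue) and from the fit without KO 2 (red). Every point lies above 0, from 0.49 (Camk2d) to 1.68 (Camk2a) over all 6 libraries, and each is higher without KO 2.

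Over all 6 libraries, 0 of the 9 genes and 0 of all 16166 genes tested passed an adjusted p of 0.05 (background 0 percent higher and 0 percent lower in KO, edgeR quasi-likelihood test). At an unadjusted p under 0.05, 2462 genes were higher and 1923 lower. DESeq2 called 757 genes higher and 425 lower, and the exact test of edgeR called 107 higher and 81 lower. Each of these 2 tools called 1 of the 9 genes higher. With limma-voom, 0 genes were called in either direction. Without KO 2, 8 of the 9 genes passed, all but Camk2d, where 24.5 percent of all genes tested were called higher and 28.3 percent lower in KO. As the 9 genes were selected on this contrast, nothing is read from how many of them were called.

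Levels of different genes were compared per length, in the FPKM the authors deposited. Over the 6 libraries Calm2 had the highest mean, 771 ± 276 FPKM (SD, n = 6), followed by Calm3 (452 ± 184), Camk2a (415 ± 259), Ppp3ca (185 ± 102), Camk2b (132 ± 79.5), Ppp3cb (55.4 ± 25.3), Camk2g (51.5 ± 23.1), Camk2d (23.2 ± 4.75) and Camk4 (14.5 ± 9.70). Ranges of mean ± SD met for all neighbours in this order except Camk2g and Camk2d, and this spread includes the host contrast. Within libraries the order was steadier. Calm2 was above Calm3 in all 6 libraries, whereas Camk2a passed Calm3 in KO 1 and KO 3, and Camk4 passed Camk2d in KO 1. The place of Camk4 rests on its length, since the deposited FPKM imply 12331 bases and the union of its annotated exons is 3259 bases. With union exon lengths the mean of Camk4 was 54.8 and it ranked 6 of 9, while Ppp3cb (24.4) ranked 8 and Camk2d (4.39) ranked 9.

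The make-up of each family gives a view in which the total level cancels. Camk2a made up 62.3%, 58.1% and 63.9% of the summed CaMKII FPKM in WT 1, WT 2 and WT 3, and 67.5%, 69.0% and 69.3% in KO 1, KO 2 and KO 3. Its share was higher in every KO library, KO 2 included, by 7.19 ± 1.84 percentage points (SE, n = 3 and 3), or 6.98 points without KO 2. The share of Camk2g was 9.58%, 11.5% and 10.4% in WT and 7.63%, 7.57% and 7.37% in KO, a mean difference of -2.99 ± 0.57 points, or -3.01 points without KO 2. The share of Camk2d was 4.88%, 8.92% and 5.33% in WT and 2.02%, 4.59% and 2.86% in KO, also without overlap, and the difference was -3.22 ± 1.48 points, or -3.93 points without KO 2. Camk2b held 20.3% to 23.3% in WT and 18.8% to 22.9% in KO, which overlapped. In FPKM, alpha thus made up more and gamma and delta less of CaMKII in KO tumors. The shares of a family depend on each other, so these differences are not separate results. No background over other gene families was computed. The CaMKII sum was 352 ± 129 FPKM (SD) in WT and 891 ± 310 FPKM in KO.

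Of the summed FPKM of Calm2 and Calm3, Calm2 contributed 65.4%, 66.0% and 64.8% in WT 1, WT 2 and WT 3 and 62.7%, 59.9% and 61.5% in KO 1, KO 2 and KO 3. Every KO library was below every WT library, and the difference was -4.01 ± 0.90 percentage points (SE, n = 3 and 3), or -3.26 points without KO 2. The rest was Calm3, so its share was higher by the same amount in KO. Among calcineurin catalytic subunits, Ppp3ca held 64.9% to 72.8% in WT and 71.9% to 79.5% in KO, and all 3 shares overlapped over the 6 libraries. Without KO 2 the share of Ppp3cc, the gamma catalytic subunit, no longer overlapped (-3.86 points, against -2.96 with KO 2). With union exon lengths each of these differences kept its sign and its overlap or lack of it over the 6 libraries, but that of Camk2d shrank to -1.10 points. They come from the contrast on which the genes were selected and have no test, and neuron marker sums were higher in KO, as given above.

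**Figure D3:**
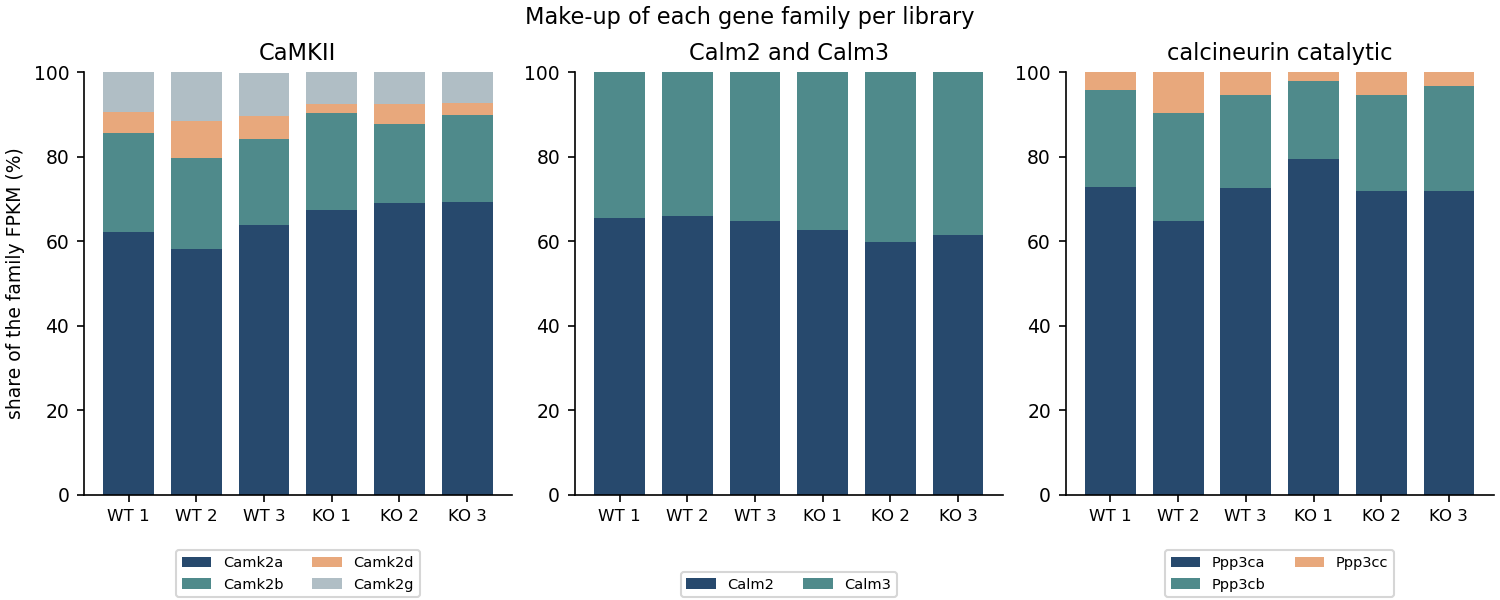
Share of each gene in the summed FPKM of its family (percent, vertical axis from 0 to 100) in the 6 libraries, for CaMKII, for Calm2 with Calm3 and for the catalytic subunits of calcineurin. Camk2a takes 58.1% to 63.9% of CaMKII in WT and 67.5% to 69.3% in KO, and Calm2 takes 64.8% to 66.0% of the sum of Calm2 and Calm3 in WT and 59.9% to 62.7% in KO.

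Set against the summed neuron markers of the same library, the spread between libraries was smaller for 8 of the 9 genes. How many of all genes narrowed or separated in this way was not computed, so these values only describe the members. The part of neuron RNA in them was not tested. Camk2b ranged 6.14-fold in CPM and 1.21-fold as a percentage of the neuron sum, at 7.11%, 7.05% and 7.57% in WT and 8.51%, 7.94% and 7.32% in KO. Camk2a was at 23.6%, 23.6% and 29.5% of the neuron sum in WT and at 31.1%, 36.1% and 30.7% in KO, and every KO library was above every WT library. Calm2 went the other way, with 14.9%, 20.5% and 18.6% in WT and 11.7%, 14.6% and 11.1% in KO. Ppp3cb was also lower in every KO library, at 3.27%, 4.14% and 3.84% in WT and 2.83%, 3.11% and 2.86% in KO. Camk2g, Camk4, Calm3 and Ppp3ca overlapped between groups. Camk2d was the exception among the 9, since it ranged 2.07-fold in CPM but 3.88-fold relative to the neuron sum, at 1.59%, 3.11% and 2.11% in WT and 0.80%, 2.06% and 1.09% in KO.

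**Figure D4:**
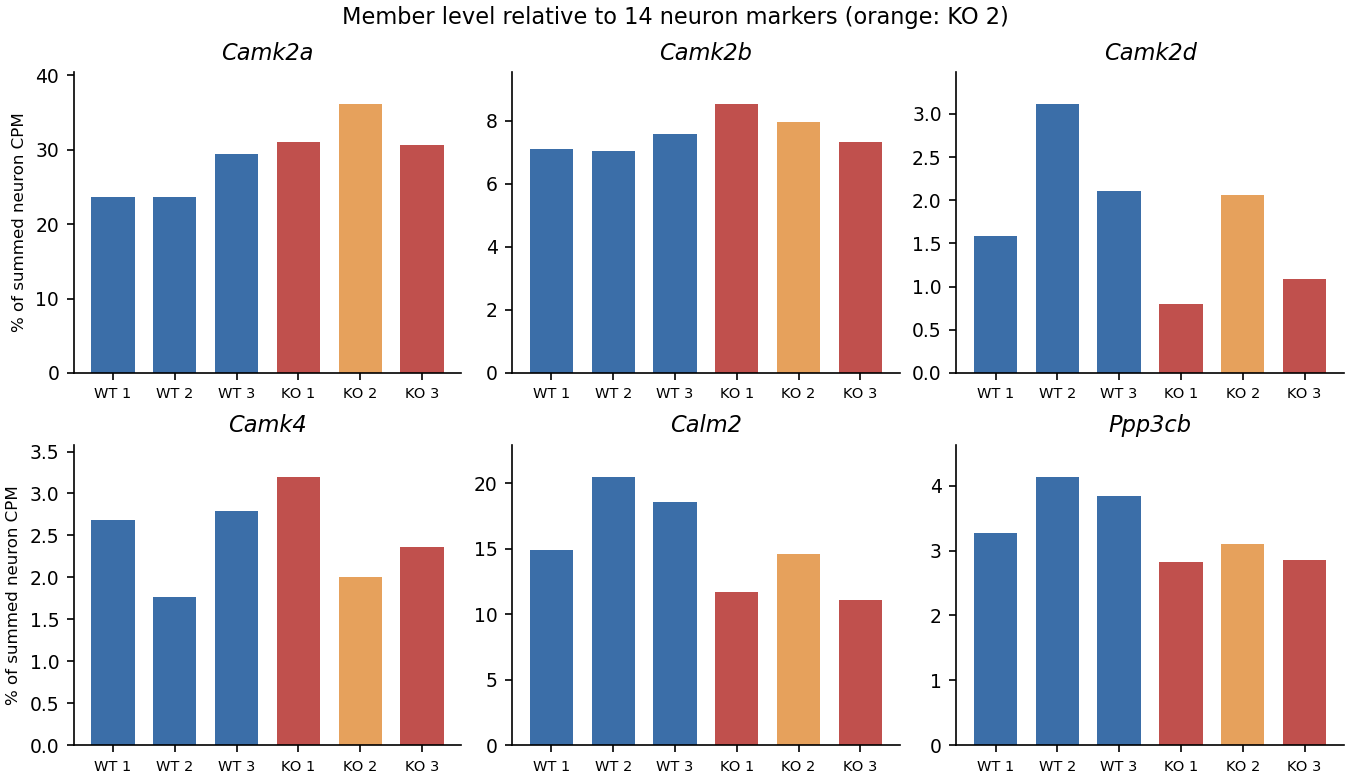
CPM of 6 member genes as a percentage of the summed CPM of 14 neuron markers in each library (vertical axes from 0), WT in blue, KO in red and KO 2 in orange. Camk2a is at 23.6% to 29.5% in WT and 30.7% to 36.1% in KO, whereas Calm2 is at 14.9% to 20.5% in WT and 11.1% to 14.6% in KO.

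The genes with the most similar profiles over the 6 libraries were searched among 15298 genes with a mean of at least 1 CPM. Near Camk2b lay Cacna1a, a neuronal calcium channel subunit (distance 0.0337), and Zfp365 (0.0489). Camk2a was nearest to Pamr1 (0.0756) and Srcin1 (0.0822), Camk2g to Camk1d (0.0408), another calmodulin-dependent kinase, and Camk4 to Rbfox1 (0.0671), a neuronal splicing factor. Calm2 was nearest to Ppme1 (0.0332), Calm3 to Brsk2 (0.0345), Ppp3ca to Cpne5 (0.0482) and Ppp3cb to Sort1 (0.0400). Camk2d was nearest to Sh3rf1 (0.0639), whose CPM was 39.7, 31.5 and 33.7 in WT and 37.0, 40.9 and 61.8 in KO. A small distance over 6 libraries says only that the values rose and fell together.

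The rest of the pathway was read from 9 lists of 61 genes, of which 59 were in the table. The lists were chosen with earlier results of these data known. Their counts and p-values therefore describe these libraries and are no independent support. Over all 6 libraries 46 of the 59 were higher and 13 lower in KO, with a median log2 fold change of 1.00, and none passed the adjusted p of 0.05 in edgeR's quasi-likelihood test, in the exact test or in limma-voom. Of all 16166 genes tested, 7877 were higher and 8289 lower. At an unadjusted p under 0.05 in the quasi-likelihood test, 25 of the 59 were higher and 2 lower, against 2462 and 1923 of all genes. DESeq2 called 9 of the 59 higher and 0 lower, against 757 and 425 of all genes. Without KO 2, 32 of 59 were called higher and 4 lower, against the 24.5 and 28.3 percent of all genes given above, and their median was 1.25. With both KO 2 and KO 3 left out, none of the 59 was called, and with KO 2 and KO 1 left out 2 were called higher and 2 lower. In what follows, each log2 fold change with its SE and adjusted p is from edgeR without KO 2, after the log2 fold change over all 6 libraries, where none was called. The background to each count of called genes is the same 24.5 percent higher and 28.3 percent lower.

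CaMKII has small inhibitor proteins, and both of their genes were higher without KO 2. Camk2n1 was at 999, 312 and 724 CPM in WT and 2609, 995 and 2717 CPM in KO, a log2 fold change of 1.63 over all 6 libraries and 1.98 ± 0.49 without KO 2 (adjusted p 0.0217). Camk2n2 had all 3 KO libraries above WT (23.4 to 45.7 CPM in WT, 53.6 to 96.1 in KO), with 1.31 and 1.53 ± 0.32 (adjusted p 0.0156). All 7 genes of CaMKII binding and substrate proteins were called higher without KO 2. Highest over all 6 libraries was Grin2b, the NMDA receptor subunit that anchors CaMKII (1.66, then 2.02 ± 0.54, adjusted p 0.026). Inhibitors and partners of CaMKII thus had the same sign as the 4 CaMKII genes.

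Proteins that hold calmodulin in neurons were also mostly higher, with 3 of 4 called. Nrgn, neurogranin, was at 448, 88.1 and 321 CPM in WT and 1285, 360 and 1243 CPM in KO, a log2 fold change of 1.75, then 2.15 ± 0.62 (adjusted p 0.0324). Gap43, a growth cone protein, was not called (0.65, then 0.71 ± 0.29, adjusted p 0.081). Of the other calmodulin-dependent kinases 6 of 12 were called higher and none lower, from Camk1, not called (-0.13, then -0.18 ± 0.17, adjusted p 0.391), to Camkv, a kinase-like protein of synaptic vesicles (1.39, then 1.70 ± 0.35, adjusted p 0.0146). Of the enzymes and calcium pumps 8 of 14 were called higher and none lower. Adcy1, a calmodulin-activated adenylyl cyclase, was at 395, 92.9 and 274 CPM in WT and 1030.0, 437 and 1198 CPM in KO (1.80, then 2.14 ± 0.56, adjusted p 0.0255), whereas Pde1c, a calmodulin-dependent phosphodiesterase, was not called (-0.37, then -0.44 ± 0.31, adjusted p 0.273).

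Of the other calcineurin subunits, 1 of 3 was called, the regulatory subunit Ppp3r1. It was at 543, 215 and 367 CPM in WT and 989, 358 and 1129 CPM in KO, a log2 fold change of 1.13 ± 0.53 over all 6 libraries (adjusted p 0.195, edgeR), and the adjusted p was 0.0246 without KO 2. The other regulatory subunit gene, Ppp3r2, known from testis, was under 1 CPM in every library. Of inhibitors and anchors 3 of 6 were called higher. They included Akap5, which anchors calcineurin at synapses (1.39, then 1.72 ± 0.39, adjusted p 0.0176), while Rcan3, an inhibitor, was not called (-0.07, then -0.09 ± 0.20, adjusted p 0.712). Among 9 NFAT and CREB pathway factors, 1 was called higher and 3 lower without KO 2, with a median of -0.29 over all 6 libraries. Of all genes tested without KO 2, 24.5 percent were called higher and 28.3 percent lower. The count of factors called lower was thus near the share of all genes. Crtc1, a CREB coactivator regulated by calcineurin, was the one called higher (1.01, then 1.25 ± 0.22, adjusted p 0.0106).

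Nfatc3, a transcription factor that calcineurin dephosphorylates, was at 51.8, 71.6 and 62.2 CPM in WT 1, WT 2 and WT 3 and at 21.3, 49.1 and 17.6 CPM in KO 1, KO 2 and KO 3. All KO libraries were below all WT libraries. Its log2 fold change was -1.10 ± 0.41 over all 6 libraries and -1.67 ± 0.19 without KO 2, with an adjusted p of 0.00798. Nfatc1 and Creb1 were the other factors called lower without KO 2. Nfatc1 was at 12.6 to 14.3 CPM in WT and at 8.73, 15.7 and 6.61 CPM in KO 1, KO 2 and KO 3, so KO 2 was above every WT library. Its log2 fold change was -0.40 ± 0.34 over all 6 libraries (adjusted p 0.401, edgeR) and -0.81 ± 0.21 without KO 2 (adjusted p 0.0246). For Creb1 the values were -0.29 and, without KO 2, -0.37 ± 0.12 (adjusted p 0.0439). The calmodulin-like gene Calml4, at 1.95 CPM or less in every library, was also called lower (-1.64, then -2.35 ± 0.64, adjusted p 0.0269). Nfatc3 and Nrgn thus had opposite signs in the same tumors. Astrocyte marker sums were 3229 to 4291 CPM in WT and 4681 to 6778 in KO, oligodendrocyte sums 1315 to 3333 and 3197 to 7459, microglia sums 367 to 457 and 376 to 539, and endothelial sums 87.2 to 133 and 75.2 to 109. Their part in these results was not tested.

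**Figure D5:**
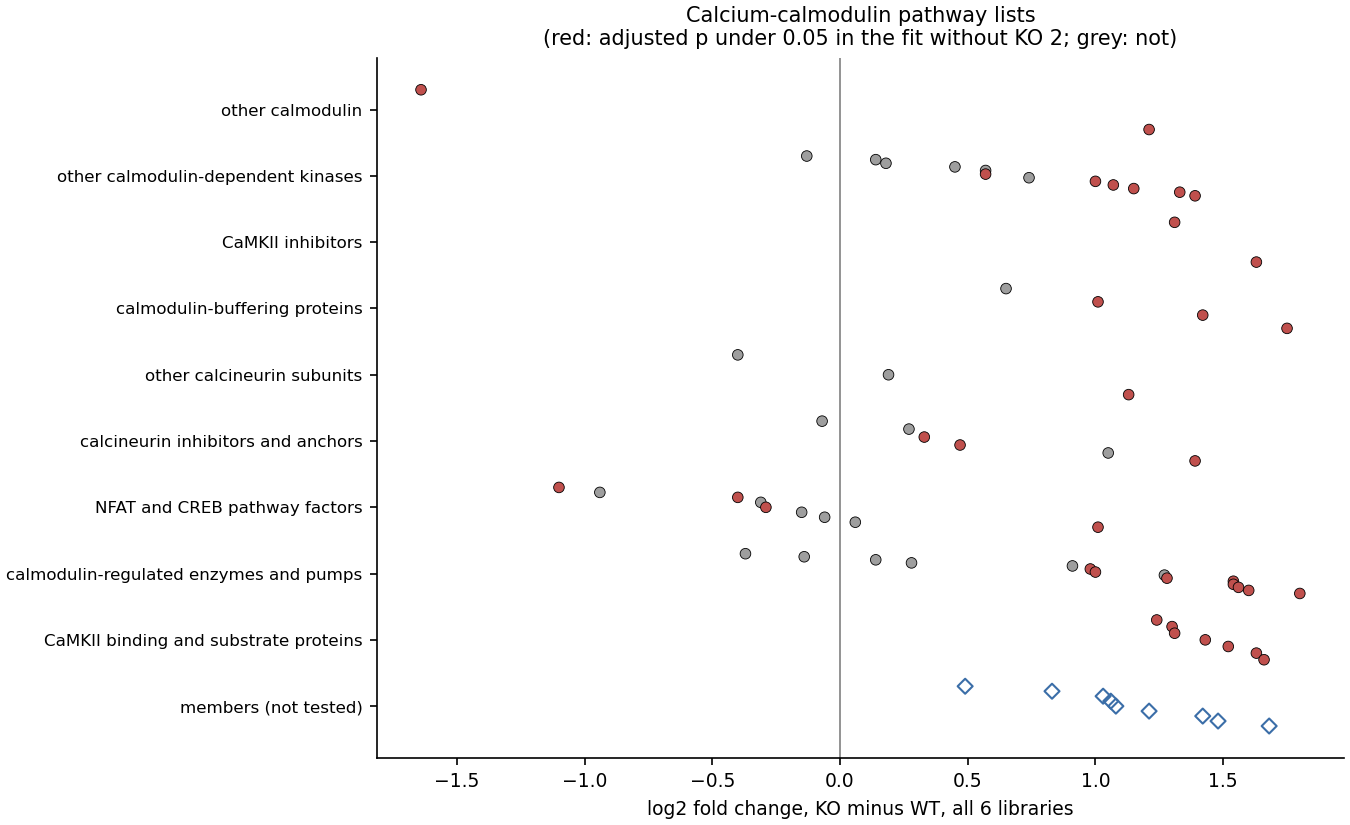
Log2 fold change, KO minus WT, over all 6 libraries (horizontal axis) for 59 pathway genes in 9 lists, red where the adjusted p was under 0.05 in the fit without KO 2 and grey where it was not, with the 9 selected genes as open diamonds. All 7 CaMKII binding and substrate proteins lie to the right of 0, whereas 7 of the 9 NFAT and CREB pathway factors lie to the left. Of all 16166 genes tested, 7877 were higher and 8289 lower in KO.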

How the data were processed

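RNA-seq was analysed for 3 tumors from WT hosts and 3 from Esm1 KO hosts, grouped by the sample labels. The authors deposited whole-number read counts per gene, without normalization, for 16729 genes. Beside them stand FPKM values, made by the authors for every library, and a normalized signal that the authors made by scaling each library's counts, which was not used. The authors' comparison columns, which hold log2 fold changes, p-values and false discovery rates, and 3 other columns of per-library fold changes were not used. Submitters' processing notes name CASAVA 1.8.2, edgeR and mm10. The study's methods name HTSeq counts of uniquely mapped reads on hg38, so the build behind the counts is not settled. All listed genes have reads in at least 4 libraries.

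Counts were fitted with edgeR 4.0.16 in R 4.3.3 (filterByExpr with minimum count 10 and total 15, TMM factors, quasi-likelihood test, Benjamini-Hochberg adjustment over all genes tested, called at an adjusted p under 0.05), over all 6 libraries and without KO 2. The SE of each log2 fold change was its absolute value divided by the square root of the quasi-likelihood F statistic. It is thus not computed from the library values of that gene alone. The labels do not say how the tumors of a group relate, so p-values measure only the spread between these libraries. PCR copies were not marked, so precision from depth covers counting error only. The steps were tested on simulated data. Alternatives were upper quartile or RLE scaling, a mean count filter at 10 or none, DESeq2 1.42.0, the exact test, limma-voom (limma 3.58.1), each library left out, 4 libraries, a replicate block and union exon lengths. Whether the replicate numbers pair the tumors is not known, and the main fits treated the tumors as unpaired.

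The members, the pathway lists and the marker lists were chosen with earlier results of these data known. Named genes were the members, Esm1, the lowest and highest gene of each pathway list by log2 fold change, and the nearest profiles of each member. Nfatc1 and Creb1 were named after their values were seen. Some genes that this rule selects are not reported here, though counts over lists include them. Positions, transcripts and translated coding sequences came from GENCODE vM21 (GRCm38), and promoters from RefSeq. Figures were drawn with matplotlib 3.10.9 and tables made with pandas 2.3.3 in Python 3.11.15.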

Additional observations from a re-analysis of the deposited data

How the results depend on the processing

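The log2 fold changes of the 9 genes kept their direction in all 135 alternative values, with ranges from 0.22 to 0.62 (Camk2d) and from 1.40 to 2.02 (Camk2a). As these genes were selected on this contrast in the same libraries, the kept direction is no independent support. Counts of called genes did not hold in the same way. Over all 6 libraries 0 genes were called, against 757 higher and 425 lower in DESeq2, 107 and 81 in the exact test, and 464 and 2244 with WT 1, WT 2, KO 1 and KO 3 alone. Leaving out 1 library at a time gave 0 to 3986 higher and 0 to 4608 lower, with calls solely without KO 2. For the 59 pathway genes, DESeq2 called 9 higher, the 4 libraries gave 4 higher and 1 lower, and leaving out 1 library gave 0 to 32 higher and 0 to 4 lower.

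Settings added after seeing the data left out a further library beside KO 2. They gave 0 (without KO 3) to 5195 (without WT 1) genes higher and 0 to 5532 lower, with 314 and 1551 without KO 1, 464 and 2244 without WT 3, and 2461 and 3473 without WT 2. Pathway genes went from 0 to 40 higher and 0 to 5 lower, and the 9 genes from 0 past the threshold (without WT 3, KO 1 or KO 3) to 9 (without WT 1). Where this left an arm with 1 library, its spread was taken from the other group. The cause of these differences was not tested. As the 9 genes were selected on this contrast, nothing is read from their counts. Rcan3, at -0.07, ranged from -0.15 to 0.07 when 1 library was left out, with 0.07 without WT 1 and 0.04 without KO 3. Of 255 alternative values of Esm1 and of the named lowest and highest genes of the lists, 233 kept sign and side of the threshold and 20 passed it anew. Nfatc1, Creb1 and the nearest-profile genes were not followed through these alternatives.

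With the replicate number as a replicate block, 0 genes were called (3502 higher and 3328 lower at an unadjusted p under 0.05, smallest adjusted p 0.065 in edgeR). Deviations of same-numbered tumors from their group means correlated at 0.55, 0.59 and -0.21 across genes. KO 1 and KO 2 correlated best with the WT tumor of the same number, whereas KO 3 correlated best with WT 1 (0.54). Deviations from a mean of 3 libraries depend on each other, so these values cannot settle whether the numbers pair the tumors. With 3 tumors a group, a gene that was not called is not shown to be unchanged.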
